A study of Mus musculus with 42 samples.

Results

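HOXA9 and HOXC9 are HOX9 paralogs, and their binding in differentiating motor neurons was compared through the binding events called for each of them at day 3. An event is a genomic position at which the caller estimated a number of ChIP reads above control. Events on chromosomes 1-19 and X were ranked by estimated ChIP reads, the 10000 highest of each list were kept, and an event was called shared when any event of the other list lay within 100 bp. The kept events were 10000 of 62885 for HOXA9 and 10000 of 74067 for HOXC9, together 14716 distinct sites, out of 1087512 events in the 21 lists of the series. The ranking cut each list inside a tie: the events at rank 10000 and rank 10001 held 187.1 estimated reads each for HOXA9 and 316.4 each for HOXC9.

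Hox genes encode homeodomain transcription factors that assign positional identity along the rostrocaudal axis, and the 9 to 13 paralog groups form the posterior, Abd-B related class. Posterior HOX proteins are known for an AT-rich core with the letters TTTAT, and HOX9 proteins can bind it together with the TALE homeodomain cofactors PBX and MEIS. HOXC9 is known for thoracic motor neuron identity and for holding down the limb-level gene Foxp1, whereas HOXA9 is best known from blood cells and leukaemia.

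Both proteins were expressed from a single doxycycline-inducible transgene copy in mouse embryonic stem cells of the Ainv15 background. Embryoid bodies of the iHoxa9 and iHoxc9 lines received all-trans retinoic acid and smoothened agonist (SAG) on day 0 and doxycycline on day 2, and all were crosslinked 24 h later, on day 3, so every library is from cells that overexpress a tagged transgene and none is from uninduced cells. The HOXC9 list pools 2 libraries made with a Flag antibody. The HOXA9 list pools 2 libraries as well, a Flag library and a library from a line with an HA tag. In the sample labels both HOXA9 libraries carry 1 run identifier, which the HOXD9 and HOXC13 libraries carry too and no HOXC9 library does, and HOXD9 and HOXC13 were likewise a Flag and an HA library each. The description of the second HOXC9 library names day 5, whereas its title and treatment give day 3. A difference between the proteins therefore cannot be told apart from a difference between runs, tags or lines.

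The HOXA9 list rests on 49.9 M aligned reads and the HOXC9 list on 52.4 M, with the same control library of 20.6 M reads. The share of reads that the caller assigned to binding was 0.233 and 0.164 in the HOXA9 libraries, and 0.174 and 0.398 in the HOXC9 libraries. The spread between the HOXC9 libraries was thus larger than the gap between the 2 lists' pooled shares of 0.195 and 0.284. The deposited values are 1 estimate per list and site, so no value below has a replicate error, no test was run, and the 95% intervals given are Wilson intervals that cover counting error over sites only. Estimated reads were scaled to reads per 10 M aligned reads wherever the lists are set side by side. Cell type markers could not be checked, because the lists hold no expression values.

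The sites that carry the comparison are shown first as sequence, the plus strand of GRCm38 (mm10) from 50 bases before the event to 50 after it. Capitals mark TTTAT, its extension TGATTTAT (a composite that PBX and posterior HOX proteins share), TGTTTGC (a forkhead-type sequence) and CCAAT, each on either strand, with overlapping matches joined into a single run. The sites highest in both lists come first, to show what strong common binding looks like.
Mef2c, chr13:83310976-83311076: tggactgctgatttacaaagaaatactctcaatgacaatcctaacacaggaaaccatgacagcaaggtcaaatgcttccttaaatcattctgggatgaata
Dab2, chr15:5941116-5941216: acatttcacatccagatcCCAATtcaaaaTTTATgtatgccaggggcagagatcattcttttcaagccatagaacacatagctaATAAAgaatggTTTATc
Hoxc4, chr15:103035316-103035416: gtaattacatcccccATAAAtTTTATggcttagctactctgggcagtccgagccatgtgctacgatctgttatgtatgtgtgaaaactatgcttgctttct
The highest HOXA9-alone sites are shown next. Those of Khdc4, Osbpl9 and Tmem97 lie within 1 kb of a coding transcription start site and hold a CCAAT and no TTTAT, and those of Sntb1 and Cux2 lie far from a start and hold a TTTAT and no CCAAT.
Sntb1, chr15:56027464-56027564: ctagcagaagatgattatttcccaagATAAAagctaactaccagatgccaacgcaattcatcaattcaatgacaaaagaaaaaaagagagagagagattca
Khdc4, chr3:88685653-88685753: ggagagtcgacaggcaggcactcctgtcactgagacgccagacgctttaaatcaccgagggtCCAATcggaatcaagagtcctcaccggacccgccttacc
Osbpl9, chr4:109201939-109202039: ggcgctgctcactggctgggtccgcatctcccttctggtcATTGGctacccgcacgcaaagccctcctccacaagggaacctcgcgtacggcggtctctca
Tmem97, chr11:78550809-78550909: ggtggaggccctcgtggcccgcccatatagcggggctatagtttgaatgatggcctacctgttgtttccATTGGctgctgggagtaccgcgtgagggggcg
Cux2, chr5:121972889-121972989: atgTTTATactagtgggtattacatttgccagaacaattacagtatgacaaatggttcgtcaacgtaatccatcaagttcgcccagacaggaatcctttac
High HOXC9-alone sites follow, of which all but that of Meis1 hold a TTTAT.
Itga1, chr13:115112211-115112311: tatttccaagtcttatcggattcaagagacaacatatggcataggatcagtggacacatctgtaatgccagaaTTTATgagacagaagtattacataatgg
Riox2, chr16:59445308-59445408: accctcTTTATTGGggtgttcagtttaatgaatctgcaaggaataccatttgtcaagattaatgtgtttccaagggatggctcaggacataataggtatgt
Mdga2, chr12:66921445-66921545: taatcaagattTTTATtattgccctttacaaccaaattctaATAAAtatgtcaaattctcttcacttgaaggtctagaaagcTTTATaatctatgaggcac
Meis1, chr11:18917061-18917161: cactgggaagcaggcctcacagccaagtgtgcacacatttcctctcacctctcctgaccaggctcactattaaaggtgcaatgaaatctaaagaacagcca
Matched sites with the largest excess of HOXC9 reads are given here.
Olfm4, chr14:80224001-80224101: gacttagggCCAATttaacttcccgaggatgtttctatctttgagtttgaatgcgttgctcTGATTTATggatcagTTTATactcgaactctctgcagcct
Akap6, chr12:52957792-52957892: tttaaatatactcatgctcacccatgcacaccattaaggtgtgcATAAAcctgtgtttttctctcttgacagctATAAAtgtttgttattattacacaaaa
Mcub, chr3:129940608-129940708: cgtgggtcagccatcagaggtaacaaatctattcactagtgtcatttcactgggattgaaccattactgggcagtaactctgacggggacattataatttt
Those with the largest excess of HOXA9 reads close the set.
Ldlrad3, chr2:102234808-102234908: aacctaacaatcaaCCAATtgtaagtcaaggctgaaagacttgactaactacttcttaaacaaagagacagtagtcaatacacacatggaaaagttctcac
Lrig1, chr6:94834820-94834920: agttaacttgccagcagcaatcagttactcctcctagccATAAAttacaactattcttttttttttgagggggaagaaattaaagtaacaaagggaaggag
Lmo7, chr14:101977197-101977297: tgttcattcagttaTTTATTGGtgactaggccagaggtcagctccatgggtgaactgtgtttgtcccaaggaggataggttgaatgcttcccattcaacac

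Nearly all strong sites of either protein were called for both, and sites of HOXC9 alone outnumbered those of HOXA9 alone. Of the top HOXA9 events, 9661 had a HOXC9 event (96.61%, 95% interval 96.2 to 96.9) and 339 were HOXA9-alone. Of the top HOXC9 events, 9135 had a HOXA9 event (91.35%, interval 90.8 to 91.9) and 865 were HOXC9-alone. Over the full lists, 32.6% of all HOXA9 events and 42.1% of all HOXC9 events were alone, so the top events were alone far less often than the lists as a whole. Not every alone site was isolated: 106 of the 339 HOXA9-alone events and 280 of the 865 HOXC9-alone events had an event of the other list within 200 bp, and 201 and 459 had none within 1 kb.

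The alone share grew with rank in both lists. None of the 1000 strongest HOXA9 events was alone (upper bound of the interval 0.383%), against 83 (8.3%) of the events at ranks 9001 to 10000. For HOXC9 the share went from 10 (1.0%, interval 0.544 to 1.83) of the strongest 1000 to 162 (16.2%, interval 14.0 to 18.6) of the weakest 1000. The HOXC9 share was the higher in each of the 10 bins, and the intervals of the 2 proteins overlapped in none of them. The highest HOXA9-alone event stood at rank 1184 and the highest HOXC9-alone event at rank 662.

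**Figure D1:**
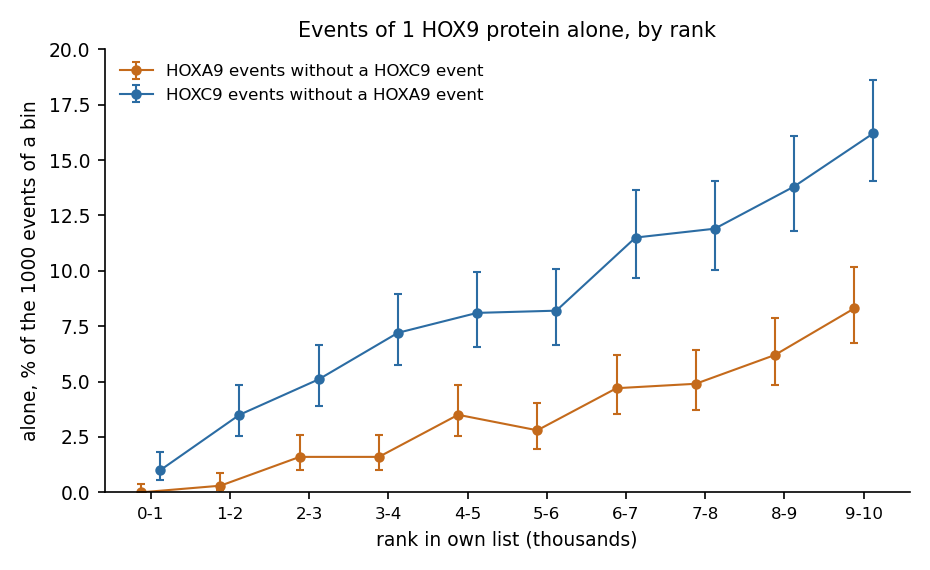
Share of top events that had no event of the other HOX9 protein within 100 bp, in bins of 1000 by rank in the protein's own list. Points are percentages of 1000 events, bars are 95% Wilson intervals, and the share ends at 8.3% for HOXA9 and 16.2% for HOXC9.

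The 100 and the 1000 strongest sites of the 2 proteins were for the most part different, and most of the 10000 strongest were common. All of the 100 strongest of each had an event of the other protein. Of the 100 strongest HOXA9 events, 36 were among the 100 strongest HOXC9 events, and the count was 436 of 1000 and 5391 of 10000. In the other direction it was 37 of 100, 444 of 1000 and 5577 of 10000. For scale, 5947 of 9135 shared and 367 of 865 HOXC9-alone top HOXC9 events had a top 10000 HOXC9 event at day 4. The 992 matched sites of the top 1000 HOXA9 events had a median HOXC9 rank of 1372.5 (quartiles 465.5 and 3399.25), and the lowest of them stood at HOXC9 rank 60613.

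Sites present in both lists were paired when each event was the nearest of the other list within 100 bp, which gave 42168 matched events, and 36279 of them (86.0%) were placed at the same base. At least 1 member was a top event in 12956 pairs. Across these 12956 sites the depth-scaled reads of the 2 proteins had a Spearman rho of 0.16 and a Pearson r of 0.20 on the log2 scale, across all 42168 a rho of 0.56, and across the 5284 sites in both top lists a rho of 0.43. These describe sites of the same pair of lists, which share a control, and the 12956 sites entered by being high in either list.

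At the 12956 sites HOXC9 held a median of 76.0 reads per 10 M and HOXA9 a median of 48.2. The median log2 ratio of HOXC9 over HOXA9 was 0.54 (quartiles -0.36 and 1.55). HOXC9 was more than 2-fold higher at 4986 sites (38.5%) and HOXA9 at 1450 (11.2%), against 23.7% and 7.51% of all 42168 matched events. This split depended on the scaling. When the lists were scaled to the reads assigned to binding, 9.73 M for HOXA9 and 14.9 M for HOXC9, every log2 ratio fell by 0.54, the median was -0.003, and the counts became 3265 and 2923. The share of HOXC9 among sites past 2-fold then went from 77.5% to 52.8%. HOXC9 had the larger count under both scalings, but the size of its excess was set by the scaling, whereas the order of sites along the ratio was not.

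**Figure D2:**
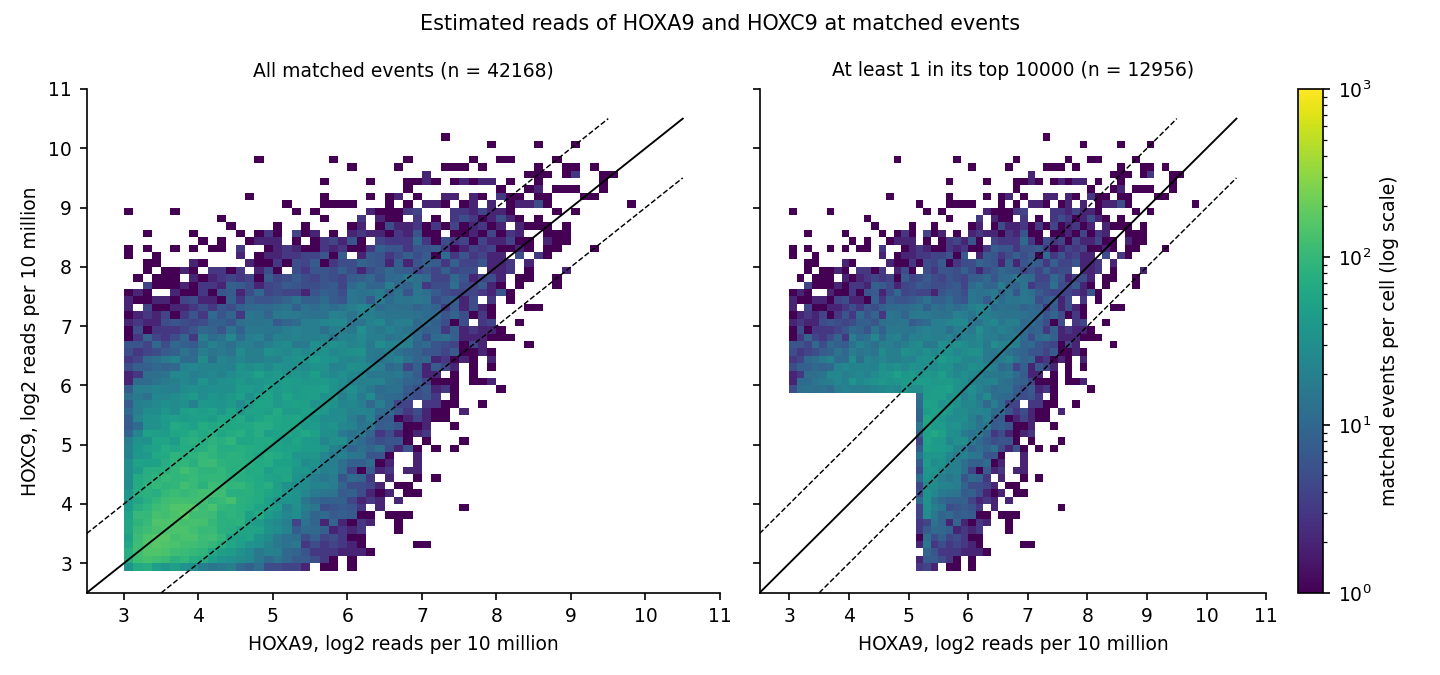
Depth-scaled estimated reads of HOXA9 (x axis) and HOXC9 (y axis) at matched events, both in log2 reads per 10 M aligned reads, for all 42168 matched events and for the 12956 with at least 1 member in its top list. Colour gives the number of events in a cell on a log scale, the solid line marks equal values and the dashed lines 2-fold. The empty lower left corner of the second panel comes from the choice of top events, and the cloud reaches farther above the lines than below.

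The ratio was also looked at in libraries that the classes did not use, with HOXC9 at day 4 set over HOXD9 at day 3. Where both had an event, the median of that log2 ratio was 1.39 (quartiles 0.55 and 2.31, n = 2995) at the sites where HOXC9 was more than 2-fold over HOXA9. It was -0.16 at the sites within 2-fold (n = 5590) and -1.08 (quartiles -1.79 and -0.22, n = 1015) where HOXA9 was higher. Sites without an event in both lists have no ratio and are left out of these medians. Of the HOXC9-higher sites, 35.0% had only the day 4 HOXC9 event and 2.47% only the HOXD9 event. Of the HOXA9-higher sites, these shares were 2.0% and 27.5%. The order of the 3 classes was the same in the second pair of lists as in the first. HOXD9 shares its run identifier and its tags with HOXA9, and the day 4 cultures are 1 day older, and the part of each in these values was not tested.

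Sequence separated the classes in both directions. TTTAT lay within 50 bp of 73.2% of HOXC9-alone events (interval 70.1 to 76.0) and 65.4% of shared top HOXC9 events (64.4 to 66.4), a difference of 7.77 points. It lay at 58.0% of shared top HOXA9 events and 43.4% of HOXA9-alone events (38.2 to 48.7). Windows 1 kb to each side held it in 38.6% and 29.1% of cases around HOXC9-alone and HOXA9-alone events, and less of the HOXC9 difference was left, 3.78 points, once the flanks were subtracted. The median GC content of the windows was 37.6% at HOXC9-alone, 40.6% at shared HOXC9, 42.6% at shared HOXA9 and 43.6% at HOXA9-alone events, the same order as that of TTTAT in the flanks from high to low.

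The longer word TTTTAT, which holds TTTAT and was picked after its values were seen, gave the widest gap. It was found at 43.2% of HOXC9-alone events (interval 40.0 to 46.6), 31.8% of shared HOXC9, 21.6% of shared HOXA9 and 10.62% of HOXA9-alone events (7.77 to 14.4), with flanks between 12.5% and 17.1%. At HOXA9-alone events it was thus no more frequent than 1 kb away. TAAT, the core favoured by central HOX proteins, went the same way, at 80.8% of HOXC9-alone and 48.4% of HOXA9-alone events, the last close to its flanks at 47.5%. The extensions TTTATGG and TTTATTA differed less between HOXC9-alone and shared HOXC9 events, with TTTATGG at 13.4% of both. At HOXA9-alone events they were at 6.49% and 3.83%, against 13.4% and 11.2% at HOXC9-alone events.

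The PBX-HOX composite TGATTTAT ran the opposite way. It was found at 8.85% of HOXA9-alone events (interval 6.27 to 12.4) and 8.66% of shared HOXA9 events, but at 5.90% of shared HOXC9 events and 2.54% of HOXC9-alone events (1.69 to 3.82), against 0.673% to 1.18% in the flanks of the 4 classes. TGACAG, the MEIS-type word, was likewise least frequent at HOXC9-alone events, at 7.86% against 6.99% in the flanks, and lay between 12.3% and 14.7% in the other classes. The E-box CAGCTG, a site of neurogenic basic helix-loop-helix factors, was at 3.699% of HOXC9-alone events, against 2.83% in the flanks, and at 8.26% or more of the events of each other class. At sites of HOXC9 alone these 2 words were thus near their flanking level, and TGATTTAT stayed above it.

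A word without a HOX core marked the HOXA9-alone class. TGTTTGC, which resembles the sites of forkhead factors and was picked after its values were seen, was found at 42 of the 339 HOXA9-alone events (12.4%, interval 9.30 to 16.3) against 1.62% of their flanks. It was at 3.34% of shared HOXA9, 2.21% of shared HOXC9 and 1.04% of HOXC9-alone events.

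**Figure D3:**
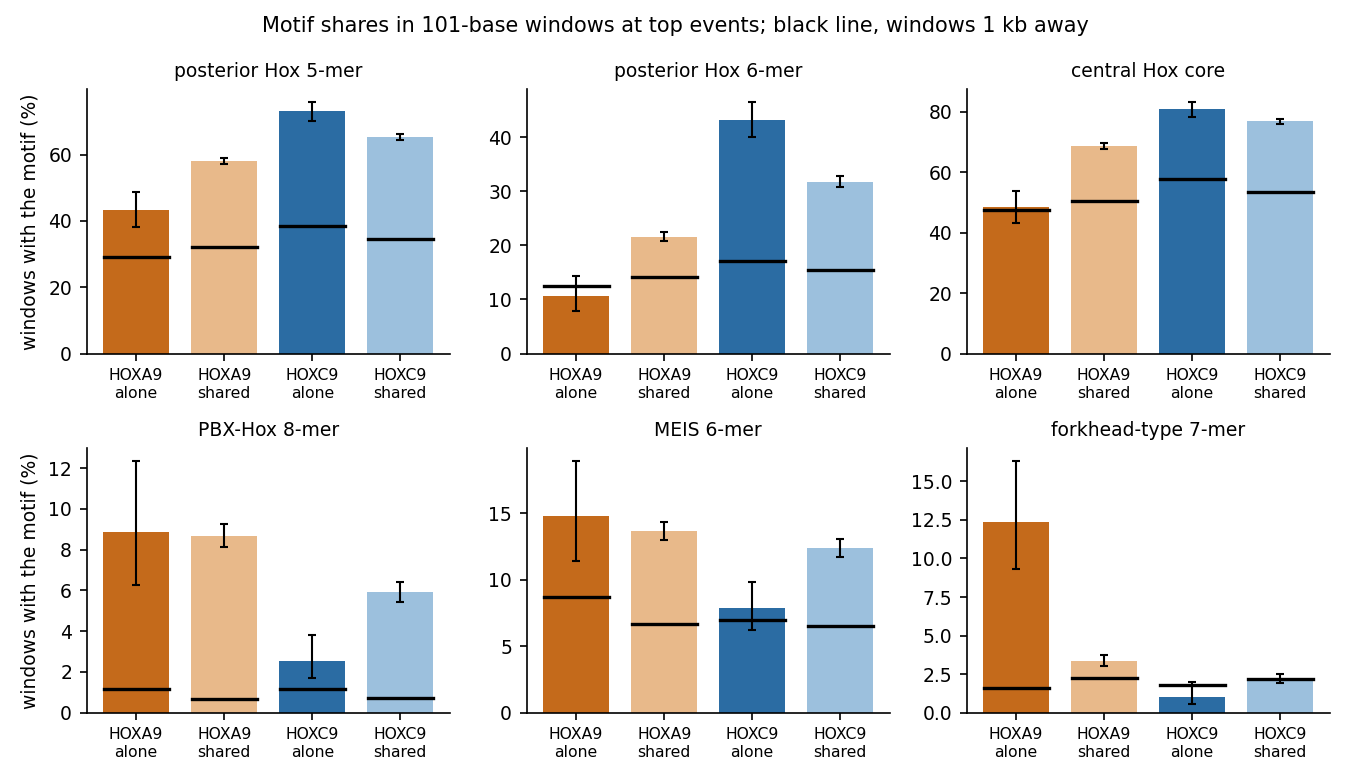
Share of windows of 50 bp to each side (y axis, %) that hold each word at HOXA9-alone, HOXA9-shared, HOXC9-alone and HOXC9-shared top events, with 95% Wilson intervals, and black lines for windows 1 kb to each side. The posterior 5-mer is TTTAT, the posterior 6-mer TTTTAT, the central core TAAT, the PBX-Hox 8-mer TGATTTAT, the MEIS 6-mer TGACAG and the forkhead-type 7-mer TGTTTGC; the first 3 are highest at HOXC9-alone events, and the last is at 12.4% of HOXA9-alone events.

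These orders held among matched sites, where both proteins had an event. TTTTAT was at 38.2% of the sites where HOXC9 was more than 2-fold higher, 20.6% within 2-fold and 12.2% where HOXA9 was higher. TGATTTAT was at 4.45%, 8.79% and 11.4% of the same classes, and TGTTTGC at 1.81%, 2.76% and 6.76%. With the classes cut after scaling to the reads assigned to binding, TTTTAT was at 41.4% and 12.9%, TGATTTAT at 3.86% and 10.9%, and TGTTTGC at 1.84% and 5.41% of the HOXC9-higher and HOXA9-higher sites. The scaling that moved the counts thus left the order of the words in place. In the lower-ranked 5000 of the top events TTTAT was at 73.5% of 616 HOXC9-alone and 63.6% of 4384 shared HOXC9 events, so the difference was also there between sites of like rank. The caller uses words it discovers itself when it places an event, and 21.2% to 24.6% of events of the shared and HOXC9-alone classes, and 15.3% of HOXA9-alone events, had a TTTAT centred within 5 bp, so presence at the very centre is not independent of the calling.

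The other HOX lists differed between the alone classes. HOXD9, the third HOX9 paralog measured, had an event at 295 of the 339 HOXA9-alone sites (87.0%, interval 83.0 to 90.2) and at 86 of the 865 HOXC9-alone sites (9.94%, interval 8.12 to 12.1). At shared events it was present at 95.4% of the HOXA9 and 76.7% of the HOXC9 sites, and positions moved by 10 kb gave 0.462% to 1.18%. Most HOXA9-alone sites were thus HOXD9 sites too, and few HOXC9-alone sites were. HOXC13 had an event at 28.0% of HOXA9-alone sites (interval 23.5 to 33.0) and 49.6% of HOXC9-alone sites (46.3 to 52.9). At shared sites HOXC13 was present more often, at 49.4% of the HOXA9 and 58.0% of the HOXC9 sites. Its list held 115819 events on these chromosomes and that of HOXD9 56361, so their shares are not on the same footing. HOXA9, HOXD9 and HOXC13 share their run identifier and their tags, and the part of these in the values was not tested.

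Further HOXC9 libraries returned most HOXC9-alone sites. At day 4, 48 h after doxycycline, HOXC9 had an event at 727 of them (84.0%, interval 81.5 to 86.3), and in embryoid bodies induced for 12 h it had an event at 580 (67.1%). At shared top HOXC9 events the shares were 95.2% and 68.7%. HOXC9-alone sites thus recurred less often than shared ones at day 4 and about as often in embryoid bodies. Among HOXA9-alone sites the shares were 41.6% and 19.8%, against 88.0% and 54.9% at shared top HOXA9 events. So 141 sites called for HOXA9 and not HOXC9 at day 3 did carry a HOXC9 event at day 4. The day 4 cultures were older and longer induced, so these events do not show whether HOXC9 bound there at day 3. That was not tested. An event missing at day 3 was not called, which differs from absent binding. The embryoid body list came from another stage and held 128322 events on these chromosomes, so its shares are not on the footing of the day 3 lists.

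Like HOXC13, HOXC10, HOXC8 and HOXC6 were rarer at both alone classes than at shared sites. HOXC10 had an event at 27.1% of HOXA9-alone and 13.5% of HOXC9-alone sites, against 81.8% and 71.0% of shared ones. The same was seen for HOXC6, at 18.3% and 9.71% against 53.8% and 47.5%, and for HOXC8, at 46.3% and 38.6% against 78.4% and 73.5%. Sites with none of HOXD9, HOXC10, HOXC13, HOXC8 and HOXC6 made up 206 (23.8%) of HOXC9-alone sites, 14 (4.13%) of HOXA9-alone sites and 2.99% of shared HOXC9 sites.

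MEIS proteins, TALE cofactors of HOX factors, were found less often at both alone classes than at shared sites of the same protein, and least often at HOXC9-alone sites. In day 3 cells of an iHoxc9 line with a V5 tag, MEIS events lay at 16.1% of HOXC9-alone sites (interval 13.8 to 18.7), 34.5% of HOXA9-alone sites and 51.6% of shared HOXC9 sites. In iHoxc10 cells the 3 shares were 5.32%, 26.5% and 29.1%, and in iHoxc6 cells 4.16%, 24.8% and 23.5%. Shared HOXA9 sites had MEIS events at 62.6% in iHoxc9, 39.8% in iHoxc10 and 31.5% in iHoxc6 cells. HOXA9-alone sites thus also lay below their own shared class in each. Each MEIS list is from 1 library, and no MEIS list from iHoxa9 cells was analysed here. Within the lower-ranked 5000 the iHoxc9 MEIS shares were 14.9% at HOXC9-alone and 44.2% at shared HOXC9 sites, so the gap was also there between sites of like rank.

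**Figure D4:**
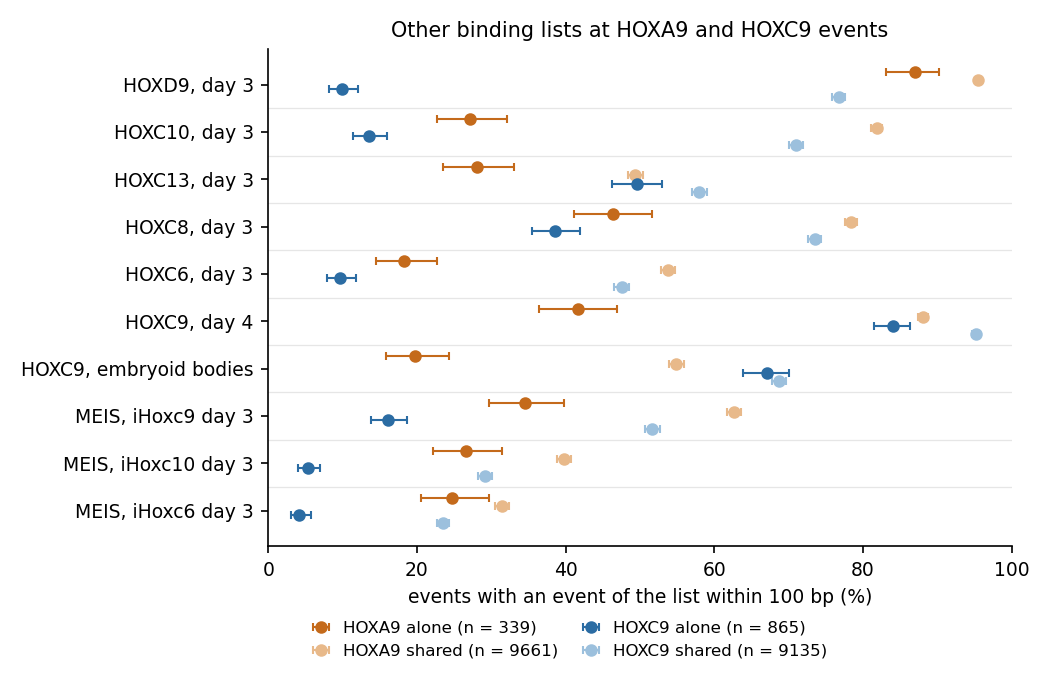
Share of HOXA9-alone, HOXA9-shared, HOXC9-alone and HOXC9-shared top events (x axis, %) that had an event of each other list within 100 bp, with 95% Wilson intervals. HOXD9 separates HOXA9-alone (87.0%) from HOXC9-alone sites (9.94%), and HOXC9 at day 4 separates them the other way (41.6% and 84.0%).

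HOXC9-alone sites lay farther from coding transcription start sites than HOXA9-alone sites, while 43.2% and 45.4% of them lay inside a gene. The median distance to the nearest coding transcription start site was 123 kb for HOXC9-alone, 87.6 kb for shared HOXC9, 66.4 kb for shared HOXA9 and 52.2 kb for HOXA9-alone events, with wide quartiles (41.2 and 326 kb for HOXC9-alone, 13.4 and 143 kb for HOXA9-alone). Sites over 100 kb from any coding start made up 54.8% of HOXC9-alone (interval 51.5 to 58.1) and 32.7% of HOXA9-alone events (28.0 to 37.9). At the other end, 27 HOXA9-alone events (7.96%, interval 5.53 to 11.3) and 7 HOXC9-alone events (0.809%, interval 0.393 to 1.66) lay within 1 kb of a start. Matched sites followed the ratio in the same order, with 6.76% within 1 kb where HOXA9 was more than 2-fold higher, 2.87% within 2-fold and 1.00% where HOXC9 was higher.

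**Figure D5:**
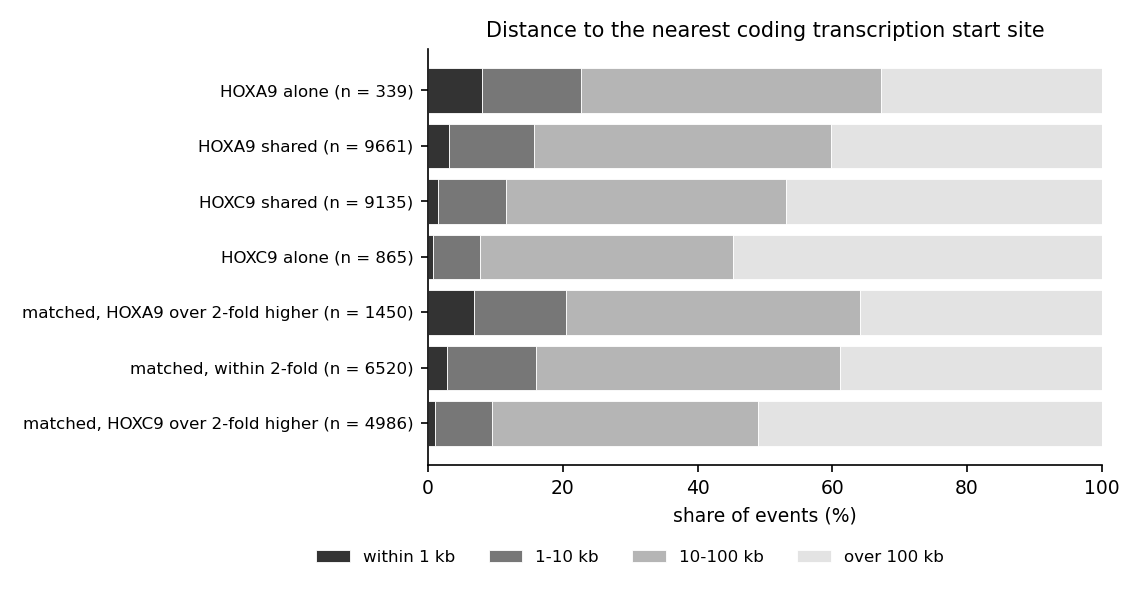
Events of each class by distance to the nearest coding transcription start site (x axis, % of the events of a class). The share over 100 kb goes from 32.7% at HOXA9-alone to 54.8% at HOXC9-alone events, and the share within 1 kb from 7.96% to 0.809%.

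CCAAT was found at part of the promoter sites of HOXA9 alone. The word, picked after the highest HOXA9-alone sequences were read, was found at 13 of the 27 HOXA9-alone events within 1 kb of a start (48.1%, interval 30.7 to 66.0) and TTTAT at 7 of them. These include the 3 sites that led to its choice, and without them it was at 10 of 24 (41.7%). Shared HOXA9 events within 1 kb of a start held CCAAT in 50 of 301 cases (16.6%, interval 12.8 to 21.2) and TTTAT in 159. Windows of the same length centred on 54050 coding start sites held CCAAT in 11.8% and TTTAT in 12.3%. The sites of Khdc4, Osbpl9 and Tmem97 lay 82 to 228 bp from a start, so the start windows are not at like positions. The 3 strongest, at Khdc4, Osbpl9 and Tmem97, were called for HOXD9 as well, with 127, 88.4 and 74.0 reads per 10 M, and for MEIS in iHoxc9 cells, with 74.9, 68.4 and 37.4.

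Among the sites highest in both lists was an intronic site of Hoxc4, 971 bp inside the gene from its nearest start, with 660 HOXA9 and 809 HOXC9 reads per 10 M and ranks 6 and 20. Its window holds ATAAA and TTTAT 1 base apart. The site that led both lists by its lower rank, 193 kb upstream of the neuronal transcription factor gene Mef2c, had 526 HOXA9 and 1043 HOXC9 reads and holds no TTTAT within 50 bp. Further sites lay 359 kb upstream of the endocytic adaptor gene Dab2 (520 and 837 reads) and in an intron of Auts2, a gene of neurodevelopment (477 and 823 reads). All 4 were called for HOXD9, HOXC10, HOXC13, HOXC8 and both other HOXC9 lists, and all but the Dab2 site for HOXC6.

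The strongest HOXC9-alone event, upstream of the integrin gene Itga1, held 269 reads per 10 M, but a HOXA9 event lay 164 bp away. Within 500 bp of it HOXC9 had 736 and HOXA9 99.6 reads in all, so HOXA9 was not absent from this stretch. The event in an intron of Meis1, a TALE cofactor gene, was of the same kind, with 253 reads and a HOXA9 event 148 bp away. Those in Gabrr3 (nearest start Riox2, 267 reads), Zfp407 (259 reads) and Mdga2 (257 reads) had none within 2 kb. Mdga2, which encodes an adhesion protein of neurons, was the most isolated, with the nearest HOXA9 event 124038 bp away, and HOXC9 held 125.2 reads there at day 4.

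Of the 5 highest HOXA9-alone events, 3 were at the promoters of Khdc4 (111 reads per 10 M), Osbpl9 (110 reads) and Tmem97 (90.6 reads), 82 to 228 bp from the start. The highest of all lay 121 kb upstream of Sntb1, a syntrophin gene, with 118 reads. At that site HOXC8 at day 3 held 340 reads and HOXC9 at day 4 held 108. HOXC9 at day 4 also had an event at each of the 3 promoters, with 11.9 to 12.4 reads. The fifth, in an intron of the homeobox gene Cux2, had 87.7 HOXA9 reads, 49.9 HOXC9 reads at day 4 and a HOXC9 event 3609 bp away at day 3.

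Matched sites reached larger ratios towards HOXC9 than towards HOXA9. The largest, 224 kb from Olfm4, held 472 HOXC9 and 8.43 HOXA9 reads per 10 M, a 55.9-fold difference between rank 146 and rank 61863. Sites in introns of Akap6 (387 against 9.89 reads) and Mcub (327 against 8.55) and a site upstream of Khdrbs3 (504 against 13.4) followed, with differences of 37.6-fold to 39.1-fold. None of the 4 had a HOXD9, HOXC10 or HOXC6 event, and all 4 had a HOXC9 event at day 4, with 72.2 to 187 reads. The HOXA9 values lay near the lowest of its list, 8.21 reads, where a fold moves with few reads.

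Towards HOXA9 the largest was 13.0-fold, upstream of Ldlrad3, with 134 HOXA9 and 10.3 HOXC9 reads. Sites near Lrig1 (122 against 9.54), Lmo7 (187 against 15.5) and Sh3glb1 (77.4 against 8.76) and in an intron of Fras1 (101.4 against 11.7) followed, from 12.8-fold to 8.65-fold. All 5 were called for HOXD9, with 23.9 to 130 reads per 10 M, and the Fras1 window held TGTTTGC. HOXC9 at day 4 was called at each with 7.70 to 28.7 reads. The day 3 HOXC9 values, 8.76 to 15.5 reads, lay near the lowest of that list, 7.63 reads, so these folds also move with few reads.

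Events were assigned to the protein-coding gene with the nearest transcription start site, which says where a site is and not which gene it regulates. The top events fell to 4702 genes, 2857 of them with top events of both proteins. HOXC9-alone events fell to 650 genes, of which 128 (19.7%) had no top HOXA9 event. HOXA9-alone events fell to 307 genes, of which 100 (32.6%) had no top HOXC9 event. Over all genes with a top HOXC9 event 18.4% had no top HOXA9 event, and over all with a top HOXA9 event 29.6% had no top HOXC9 event, so the genes with alone sites were near the background in this.

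The genes with the most HOXC9-alone events also had many shared ones. Adgrl3, a latrophilin adhesion receptor, had 7 beside 18 shared HOXC9 events. Got2 had 6 of 21 top HOXC9 events, Robo2 5 of 38 and BC052040 5 of 23, and Zfp608, Epha7, Robo1 and Flrt2 had 4 each, of 38, 24, 28 and 23. Over all genes 8.65% of top HOXC9 and 3.39% of top HOXA9 events were alone. A ranking by count favours genes with many top events, so it does not set these genes apart. Robo1 and Robo2 are Slit receptors and Epha7 an Eph receptor of axon guidance, and Flrt2 binds latrophilins. HOXA9-alone events, of which there were 339 against 865, were at most 4 to a gene: Lrmda had 4 and Adcy2 had 3, and Robo2, Nr2f1, Nkx6-1, Chl1, Cdh6 and Pdzrn3 had 2 each. Robo2 stood on both lists, with 40 shared sites beside its 5 HOXC9-alone and 2 HOXA9-alone events. Adcy2, an adenylyl cyclase gene, had 3 HOXA9-alone and no HOXC9-alone events. The most shared sites lay near Zfp608 (50), Auts2 (47), Robo2 (40), Nr2f1 (36), Lrmda (31), Robo1 (30), Ptprd (29) and Meis1 (27).

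Eph receptors and ephrins, which guide motor axons by repulsion, had 14 HOXC9-alone events among 94 top HOXC9 events (14.9%, interval 9.08 to 23.5) and 1 HOXA9-alone event among 81, against 8.65% and 3.39% over all genes. Epha7 had 4 and Efna5, Efnb2 and Epha3 had 3 each. The median log2 ratio at their 111 matched sites was 0.69, beside 0.54 over all. Semaphorin, Slit and netrin guidance genes had 16 HOXC9-alone events of 157 (10.19%, interval 6.37 to 15.9) and 3 HOXA9-alone of 136, with a median ratio of 0.68 over 179 sites. The share over all genes lay inside the interval of the guidance list and just below that of the Eph list.

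Type II cadherins, adhesion proteins that sort motor neurons into pools, stood highest by ratio among the lists with over 20 matched sites. Their 87 matched sites had a median log2 ratio of 1.09, and HOXC9 was more than 2-fold higher at 47 (54.0%) against 38.5% over all. All 6 matched sites of Cdh9 were past 2-fold towards HOXC9, with log2 ratios of 1.11 to 3.72, and Cdh20 had 8 of 11. Cdh11 was balanced, with 4 of its 14 past 2-fold each way. Cdh6 held 2 HOXA9-alone events, but 9 of its 16 matched sites were past 2-fold towards HOXC9 and 1 towards HOXA9, with a median of 1.03.

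Hox cluster genes stood at the other end. Their 64 matched sites had a median log2 ratio of -0.25, which is below the median over all sites under either scaling. By depth scaling 9 sites (14.1%) were past 2-fold in each direction, against 38.5% towards HOXC9 and 11.2% towards HOXA9 over all. None of the 64 top HOXA9 events in the clusters was alone, against 3.39% over all genes. Of 46 top HOXC9 events 2 were alone, at Hoxb2 and Hoxc8 (4.35%, interval 1.20 to 14.5, which holds the 8.65% over all genes). At Hoxd3 all 9 matched sites had a ratio below 0, from -1.87 to -0.02. Hoxc4 was balanced, with a median of 0.13 over 10 sites. Hoxa9 itself had 1 matched site, 148 bp from its start in an exon, with 47.6 HOXA9 and 46.8 HOXC9 reads per 10 M, and Hoxc9 was the nearest gene of no top event.

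The retinoic acid pathway also had a median below the whole, -0.20 over 40 matched sites. Past 2-fold were 9 sites towards HOXC9 (22.5%, against 38.5% over all) and 7 towards HOXA9 (17.5%, against 11.2%). Stra6, the retinol receptor gene, had 4 sites with a median of -1.06. Aldh1a2, which encodes the retinaldehyde dehydrogenase of limb-level motor neurons, had 4 matched sites, of which 1 was past 2-fold, towards HOXC9. Its site 1.58 kb inside the gene held 160 HOXA9 and 98.03 HOXC9 reads per 10 M, a difference within 2-fold. Summed over the events within 500 bp, HOXA9 had 225 and HOXC9 266 reads there, so the direction depended on how reads were split. A site 133 kb from the start held 58.6 HOXA9 and 522 HOXC9 reads, an 8.92-fold difference. A HOXC9-alone event with 110 reads lay 2.02 kb inside the gene, 113 bp from a HOXA9 event.

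Foxp1, the determinant of limb-level motor columns, had 19 matched sites with a median log2 ratio of 0.63, close to the 0.54 of all sites. HOXC9 was more than 2-fold higher at 7 and HOXA9 at 1, against 38.5% and 11.2% of sites over all. The widest gap lay in an intron, 8.03 kb from the nearest start, with 64.1 HOXA9 and 527 HOXC9 reads per 10 M, and HOXC9 stood there at rank 103. The strongest HOXA9 sites of the gene, with 276 and 253 reads, held 449 and 177 HOXC9 reads. Its only HOXC9-alone event, with 64.3 reads, had a HOXA9 event 105 bp away. The motor column and pool list as a whole had a median of 0.63 over 123 sites and 4 HOXC9-alone events of 96.

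Motor neuron identity genes had 3 HOXC9-alone events of 23 (13.0%, interval 4.54 to 32.1), against 8.65% over all genes. Isl1, the LIM homeobox gene of newborn motor neurons, had all 3 HOXC9-alone events of the list and a median log2 ratio of 1.43 over 10 matched sites, 6 of them past 2-fold towards HOXC9. Lhx3 and Lhx4, the LIM partners of motor neuron specification, had medians of 0.07 over 3 and -0.04 over 2 sites. None of the 23 top HOXA9 events of the list was alone, against 3.39% over all genes.

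Ventral progenitor patterning genes had 5 HOXA9-alone events of 81 (6.17%, against 3.39% over all genes) and 6 HOXC9-alone events of 65 (9.23%, against 8.65%). The retinoic acid list had a HOXA9-alone share of 7.69%, 3 of 39, and a HOXC9-alone share of 7.41%, 2 of 27. Nkx6-1, a homeobox gene of ventral progenitors, had 2 of each, and its 23 matched sites went from -2.25 to 3.81 on the log2 scale. Shh, the gene of the ventralizing signal, had 2 HOXA9-alone events and no other top event. Its intronic site 7.88 kb inside the gene held 59.9 HOXA9 and 38.7 HOXD9 reads per 10 M, and the site 101.3 kb upstream held 42.9 and 44.1, with the nearest HOXC9 events 59554 bp and 28636 bp away. Shh was named after its values were seen. Foxa2, a forkhead gene of the floor plate, had a median log2 ratio of -0.99 over 7 matched sites, 3 of them past 2-fold towards HOXA9 and none towards HOXC9.

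Hox cofactor genes had 5 HOXC9-alone events of 82 (6.10%, interval 2.63 to 13.5, which holds the 8.65% over all genes) and no HOXA9-alone event of 93 (3.39% over all genes), with a median log2 ratio of 0.26 over 111 sites. Pbx3 stood apart within the list, with a median of 1.35 over 15 sites and 11 of them past 2-fold towards HOXC9, whereas Meis1 had a median of 0.004 over 25 sites and Tshz2 one of -0.67 over 10. GDNF receptor genes had no alone event among 11 top events of each protein, against 8.65% for HOXC9 and 3.39% for HOXA9 over all genes. Of their 14 matched sites 7 were past 2-fold towards HOXC9 (50.0%, against 38.5% over all). The caudal axis list had top events at 3 of its 10 genes, Lin28b, Cdx2 and Lin28a. Of its 4 top HOXA9 events 1 was alone, at Lin28b, against 3.39% over all genes.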

How the data were processed

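ChIP-seq of tagged HOX proteins was measured in iHox embryoid bodies, 2 libraries each for HOXA9 and HOXC9 at day 3. According to the methods and the submitters' processing notes, the authors aligned reads to mm10 with Bowtie 1.0.1, keeping uniquely mapped reads, called binding events with MultiGPS over pooled replicates at a q-value under 0.001, and named Picard 2.8.2 and edgeR 3.22.5. The deposited lists hold, per event, estimated counts (expected counts) of ChIP and control reads, a log2 fold over control, a log2 q-value and a motif score. The edgeR comparisons between proteins that they also hold were not used. MultiGPS places events with motifs it finds, so motif and position are not independent. Each list holds 1 pooled value per site, so the labelled replicates give no spread and no test was made, and Wilson intervals cover counting error only.

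Here, events were ranked by estimated reads, with ties broken by coordinate, matched within 100 bp, and scaled to reads per 10 M aligned reads (49.9 M for HOXA9, 52.4 M for HOXC9). A 2-fold difference was used as the limit for unequal sites. Matched sites are mutual nearest events. Words were searched on both strands of GRCm38 from 50 bases before to 50 after the event, and flanks lie 1 kb away on both sides. All of the longer posterior words hold TTTAT. All 62885 HOXA9 and 74067 HOXC9 deposited event sequences were found within 100 bp of their coordinates in that genome. Nearest genes are by the start sites of protein-coding transcripts in GENCODE M21. Named sites were the 5 highest of each class, by the lower of both ranks for shared sites, and the 5 largest ratios each way; named genes were the 8 with the most events of each class, plus Hoxa9, Hoxc9, Aldh1a2 and Foxp1; list genes with the most alone events were also named, and other list genes were picked after their values were seen. Members and gene lists were chosen with earlier results of these data known, and 5 of the words, among them TTTTAT, the forkhead-type TGTTTGC and the promoter word CCAAT, after their values were seen. The matching and the counting were tested on simulated data. Python 3.11.15, numpy 2.4.6, pandas 2.3.3, scipy 1.17.1 and matplotlib 3.10.9 were used. Some of the genes these rules name are not reported here.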

Additional observations from a re-analysis of the deposited data

How the results depend on the processing

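The share of top HOXA9 events with a HOXC9 event (96.61%) was 98.6% among the top 5000 and 91.64% among the top 20000, 93.58%, 97.67% and 97.87% at 50, 200 and 500 bp, 53.91% when the HOXC9 event had to be in its own top list, and 95.74% with the HOXC9 list cut to the length of the HOXA9 list. The share of top HOXC9 events with a HOXA9 event (91.35%) was 95.02%, 84.66%, 85.58%, 94.15%, 94.94% and 55.77% under the first 6 of these settings, and the HOXC9 share of shared events was the lower in each but the last. Ranking by q-value left both shares within their intervals.

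The rank correlation over matched sites (0.16) was 0.082 for the top 5000, 0.28 for the top 20000 and 0.62 for the log2 fold over control, which puts the same control reads under both proteins. The median log2 ratio (0.54) reversed to -0.00295 when scaled to reads assigned to binding, and was 0.48 with 10 reads per 10 M added and 0.61 with reads summed within 500 bp, an alternative chosen after seeing the data. The excess of TTTAT at HOXC9-alone over shared HOXC9 events (7.77 points) was 4.19 with 25 bp to each side, 3.78 with flanks subtracted, 1.83 for TTTATTA and 0.022 for TTTATGG, and 12.4 where no HOXA9 event lay within 1 kb, the last chosen after seeing the data. The cause of these shifts was not tested.

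No paired analysis was possible because each list pools its libraries into 1 value per site, and leaving out a library gave no value for the same reason. The scaling sets the size of the HOXC9 excess in sites past 2-fold. An event missing from a list was not called at this depth, which differs from absent binding: 14.9 M reads were assigned to binding for HOXC9 and 9.73 M for HOXA9.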

Other observations

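Among all 6-letter words, TTTTAT differed most between matched sites where HOXC9 was more than 2-fold higher (38.2%) and those where HOXA9 was (12.2%), and GATTTA differed most in the other direction, with 17.9% against 32.3%. These words were picked after their values were seen. GATTTA, which lies inside the PBX-HOX composite, was found at 24.5% of HOXA9-alone events against 4.57% of their flanks, and at 13.4% of HOXC9-alone events against 7.92% of theirs. ACAAAG, whose letters fall in the consensus of SOX factors, was found at 22.4% of HOXA9-alone events (flanks 8.997%), 18.0% of shared HOXA9 events, 14.6% of shared HOXC9 events and 11.4% of HOXC9-alone events (flanks 10.7%). At HOXC9-alone events this last word was thus close to its flanking level.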
